A study of Homo sapiens with 6 samples.

Results

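The 9 genes described here encode SLPI and other protease inhibitors of epithelia, with membrane serine proteases that some of them restrain. They were SLPI, PI3, WFDC2, SPINT1, SPINT2, SERPINB1, SERPINB5, ST14 and PRSS8, taken by symbol from the 37887 rows of the count table. SLPI was picked with its increase between these groups already known. The other 8 genes were added for the function of their products, with earlier results of these data also known. The difference between the groups is therefore a description for all 9 genes. No gene of the 9 is given a p-value. The number past a threshold is printed beside the share of all genes, and again only where an alternative changed it.

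RNA-seq was done on MDA-MB-436, a cell line from a triple-negative breast cancer (TNBC) with mutant BRCA1, that stably carried a tet-MUC1 shRNA vector. The control group held 3 libraries from cells given 0.1% DMSO as vehicle, and the shMUC1 group held 3 libraries from the same cells given doxycycline (DOX) at 500 ng/ml, which switches the shRNA on. Cells of both groups thus carried the vector, and an effect of DOX itself cannot be told apart from silencing of MUC1. The length of DOX treatment is not given in the sources used here, and the sample titles call the vehicle group a control shRNA.

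In epithelia, serine proteases at the cell surface process receptors, channels and growth factor precursors, and secreted or membrane-bound inhibitors hold them in check. SLPI and PI3 (elafin) are small secreted inhibitors built on WAP domains and block neutrophil elastase, and WFDC2 (HE4) is a related WAP protein. SPINT1 (HAI-1) and SPINT2 (HAI-2) are membrane inhibitors with Kunitz domains that act on ST14 (matriptase) and PRSS8 (prostasin), and SERPINB1 and SERPINB5 (maspin) belong to the clade B serpins, which stay largely inside the cell.

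Library totals ran from 18678307 to 27825546 counts, and levels are given in counts per 1000000 counts (CPM) after TMM scaling. MUC1, the targeted gene, had 93, 84 and 102 counts in control and 72, 51 and 34 in shMUC1 libraries. Its mean fell from 3.88 ± 0.401 to 2.14 ± 0.412 CPM (SD, n = 3 each), with an edgeR adjusted p of 0.00119, and no libraries overlapped. Of the genes that define a triple-negative line, ESR1 and PGR had at most 12 counts in any library, whereas ERBB2 had from 715 to 1142. Among values from 1 to 20 counts, from 68.9% to 70.5% were even in each library. Whether each read of a pair was counted is not given in the sources used here. Of the 42 values above 0 for the 9 genes, 36 were even, and values with counts halved are given where few counts decide a result. Intervals and floors given here cover counting error only.

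The genes lie on 7 chromosomes (GENCODE release 29, GRCh38). PI3 (chr20:45174876-45176544, plus strand), SLPI (chr20:45252239-45254564, minus strand) and WFDC2 (chr20:45469706-45481532, plus strand) share a cluster of WAP genes. SPINT1 is at chr15:40844018-40858207 (plus strand), SPINT2 at chr19:38244035-38292614 (plus strand), SERPINB1 at chr6:2832332-2842006 (minus strand) and SERPINB5 at chr18:63476761-63505085 (plus strand). ST14 is at chr11:130159562-130210376 (plus strand) and PRSS8 at chr16:31131433-31135762 (minus strand).

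RefSeq promoter windows (GRCh38.p14) were found for 4 of the 9 genes, SPINT1, SERPINB1, SERPINB5 and WFDC2. Those of SPINT1 and SERPINB1 are shown because the RNA of both was higher in shMUC1 cells. The stretch shown for SPINT1 is chr15:40843798-40844017 on the plus strand, and that for SERPINB1 is chr6:2842007-2842113 on the minus strand. Both run 5′ to 3′ toward the gene and end where the GENCODE gene begins, with CG pairs in capitals.
SPINT1: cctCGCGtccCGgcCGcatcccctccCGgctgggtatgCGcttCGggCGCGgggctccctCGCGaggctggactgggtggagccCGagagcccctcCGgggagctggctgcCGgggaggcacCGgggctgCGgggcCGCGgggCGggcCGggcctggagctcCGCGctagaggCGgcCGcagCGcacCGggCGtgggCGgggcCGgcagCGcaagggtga
SERPINB1: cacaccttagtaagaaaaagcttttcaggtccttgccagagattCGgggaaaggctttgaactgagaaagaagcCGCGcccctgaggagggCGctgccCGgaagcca

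The SPINT1 stretch of 220 bases held 30 CG pairs. Over the 250 bases before the RefSeq start, SPINT1 had 35 CG pairs, more than 94.2% of 35116 promoters, whereas SERPINB1 had 21, WFDC2 19 and SERPINB5 13, against a median of 11 over all promoters. An AP-1 word (TGANTCA, either strand) was found 6 bases before the RefSeq start of SPINT1 and 146 bases before that of SERPINB5, and 7.71% of all promoter windows hold it. The E-box CACCTG, read on both strands, was present in the windows of WFDC2 and SERPINB5 and in 20.6% of all windows. Windows ran from 250 bases before to 50 bases after the start, and the 4 held no TATAAA, AACNGGTT (the grainyhead word), CCGGAAGT (an ETS word) or NF-κB consensus. No word found overlapped another. The letters searched are in 11.5%, 1.73%, 4.14% and 11.3% of all windows.

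For the transcripts of SLPI and PI3, sequence shared between them and with other genes was then counted. The longest run of bases common to both transcripts was 11 (CTTCCCCTTCC), and none of their 547 and 528 words of 50 bases was found in a transcript of another gene. The same was true of SERPINB1, SPINT1, WFDC2 and ST14. SPINT2 shared 217 of its 5426 words with other genes, among them AC011479.1, which overlaps it on the same strand. SERPINB5 shared 0.484% and PRSS8 0.0647%.

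Of the 9 genes, 5 had enough counts to be tested and all 5 were higher in shMUC1 cells at an adjusted p under 0.05 by edgeR's quasi-likelihood test. Over all 15355 genes tested, 25.2% were higher and 23.6% lower by that rule. With a fold change over 2 as well, 4 of the 5 were higher (SLPI, PI3, SPINT1 and SPINT2), where 2.21% of all genes tested were higher and 3.74% lower. For the 5 tested genes every shMUC1 library exceeded every control library in CPM, which held for 28.1% of all genes tested, and the opposite held for 26.8%. SPINT1 had enough counts for a test only through its shMUC1 libraries, so a call could only be of an increase. Since SLPI was also chosen from this same contrast, nothing is read from these counts. ST14, PRSS8, WFDC2 and SERPINB5 had too few counts to be tested.

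**Figure D1:**
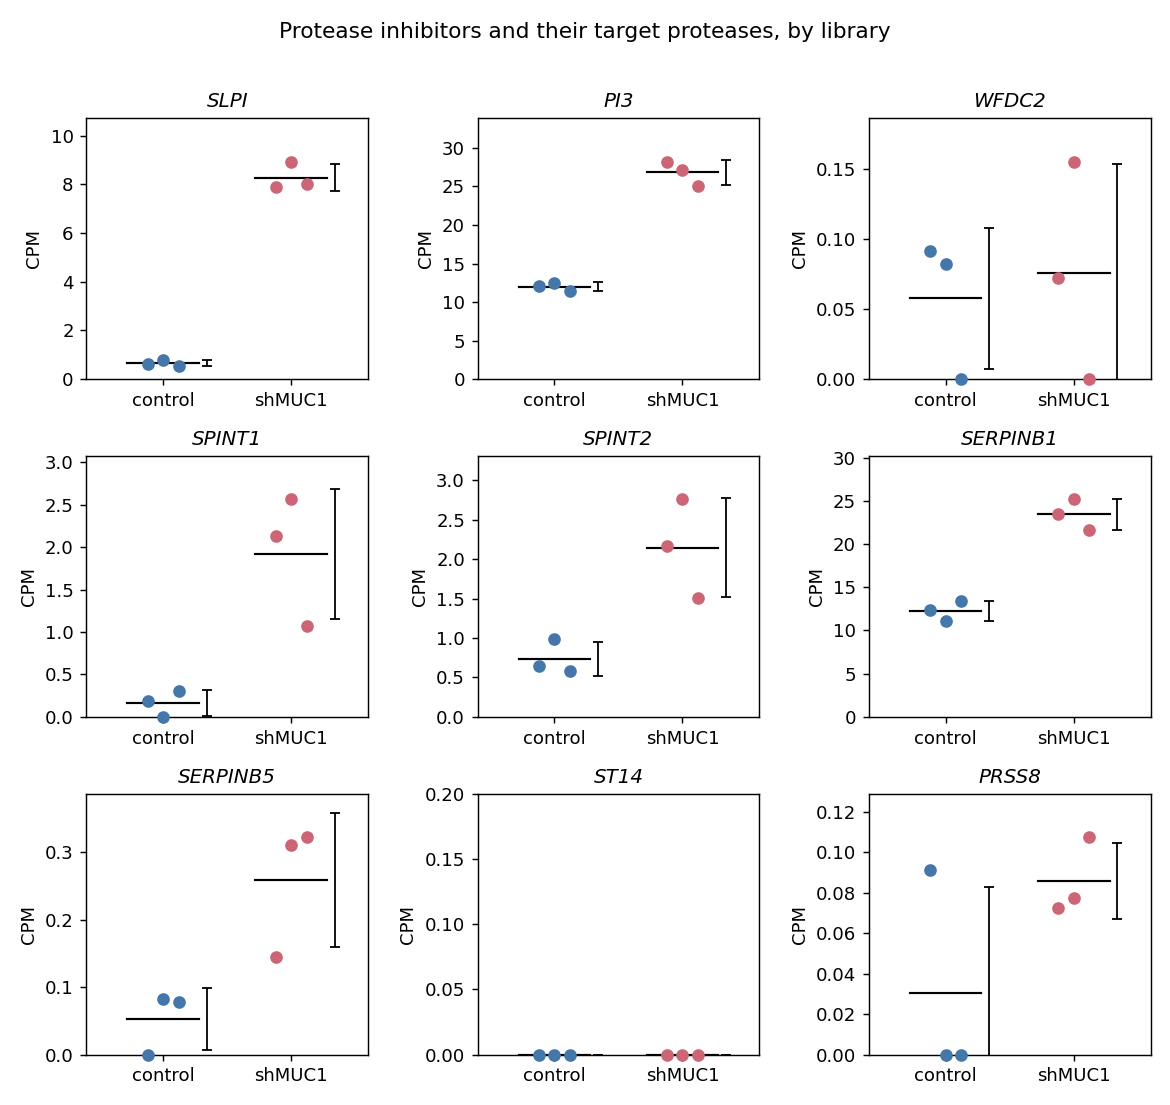
Level of each of the 9 genes in counts per 1000000 counts (CPM, vertical axis, from 0) in the 3 control and 3 shMUC1 libraries. Points are libraries, horizontal lines are means and bars are SD, which end at 0. SLPI lay between 0.542 and 0.780 CPM in control and between 7.89 and 8.93 CPM in shMUC1 libraries, while ST14 was at 0 in all 6.

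The secreted WAP inhibitors are described first. The counts of SLPI were 14, 19 and 14 in control and 218, 230 and 149 in shMUC1 libraries. These are levels of 0.639, 0.780 and 0.542 CPM against 7.89, 8.93 and 8.01 CPM. Every shMUC1 library lay far above every control library, and the shMUC1 libraries differed little among themselves. The mean level of SLPI went from 0.654 ± 0.120 to 8.28 ± 0.570 CPM (SD, n = 3 per group), with a log2 fold change of 3.66 (SE 0.212), or 12.6-fold. By size of increase it stood at rank 11 of the 15355 genes tested. In bulk RNA, more cells of a type and more RNA per cell cannot be told apart.

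PI3, which is close to SLPI in function and place, started from a higher level. Its counts were 266, 304 and 294 in control and 780, 700 and 467 in shMUC1 libraries, or 12.1, 12.5 and 11.4 CPM against 28.2, 27.2 and 25.1 CPM. The groups did not overlap, and the spread within each was small. PI3 went from 12 ± 0.561 to 26.8 ± 1.59 CPM (SD, n = 3 per group), with a log2 fold change of 1.17 (SE 0.0888). Its fold difference of 2.24 was thus smaller than that of SLPI, although the rise in CPM was larger.

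WFDC2 was barely detected. It had 2, 2 and 0 counts in control and 2, 4 and 0 in shMUC1 libraries. Nearly all of these lie at or under the floor of 3 counts per library, so no fold change is given, and a difference was not detectable at this depth.

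The membrane inhibitors of matriptase were low in control cells. SPINT1 had 4, 0 and 8 counts in control and 59, 66 and 20 counts in shMUC1 libraries, or 0.182, 0 and 0.310 CPM against 2.13, 2.56 and 1.07 CPM. All shMUC1 libraries lay above all control libraries, with shMUC1 replicate 3 the lowest of its group. The mean level of SPINT1 went from 0.164 ± 0.156 to 1.92 ± 0.766 CPM (SD, n = 3 per group), with a log2 fold change of 3.52 (SE 0.515), at rank 13 of all genes tested. That value rests on 12 control counts in all, and it was 4.40 when control replicate 3 was left out and 2.94 when control replicate 2 was. The ratio of summed counts was 12.1 (95% exact interval 6.72 to 24.0), and its interval ran from 5.26 to 33.8 with counts halved.

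An antisense gene, SPINT1-AS1, shares exon sequence with SPINT1 on the opposite strand. It had 0 counts in the 3 control libraries and 6, 4 and 4 in shMUC1 libraries. Whether counting used strand is not given in the sources used here, so reads of the pair cannot be fully told apart.

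SPINT2 had 14, 24 and 15 counts in control and 60, 71 and 28 in shMUC1 libraries, or 0.639, 0.985 and 0.581 CPM against 2.17, 2.76 and 1.51 CPM. The groups did not overlap, and shMUC1 replicate 3 was again the lowest of its group. The mean went from 0.735 ± 0.219 to 2.14 ± 0.626 CPM (SD, n = 3 per group), with a log2 fold change of 1.55 (SE 0.335).

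Scaled to length, both Kunitz inhibitors were set against each other. From summed counts per kilobase of exon, the ratio of SPINT1 to SPINT2 was 0.332 (95% exact interval 0.162 to 0.630) in control and 1.34 (1.06 to 1.69) in shMUC1 cells. With the longest transcript of each gene the shMUC1 ratio was 1.14 (0.901 to 1.43), and with counts halved its interval ran from 0.958 to 1.87. SPINT2 was therefore the more abundant of the pair in control cells, whereas in shMUC1 cells neither was clearly the more abundant. On the log2 scale the control ratio was -1.59, and leaving out control replicate 3 made it -2.69, leaving out control replicate 2 -0.72. With counts halved the control interval ran from 0.114 to 0.842. For SLPI and PI3 the same ratio was 0.0527 (0.0384 to 0.0707) in control and 0.297 (0.270 to 0.326) in shMUC1 cells, so PI3 stayed the more abundant transcript in both.

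Among the serpins, SERPINB1, an inhibitor of neutrophil elastase and cathepsin G, was well expressed. It had 270, 270 and 346 counts in control and 650, 648 and 402 in shMUC1 libraries, or 12.3, 11.1 and 13.4 CPM against 23.5, 25.2 and 21.6 CPM. No control library reached the lowest shMUC1 library. The mean went from 12.3 ± 1.16 to 23.4 ± 1.78 CPM (SD, n = 3 per group), with a log2 fold change of 0.94 (SE 0.0948), or 1.91-fold.

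SERPINB5, known as a tumor suppressor of mammary epithelium, had 0, 2 and 2 counts in control and 4, 8 and 6 in shMUC1 libraries. The groups did not overlap, but every control value was under the floor of 3 counts. The ratio of summed counts was 4.51 (95% exact interval 1.49 to 18.3), and with counts halved the interval ran from 0.933 to 42.9. A difference of SERPINB5 was thus not firmly detectable at this depth.

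The target proteases were at or near 0. ST14 had 0 counts in all 6 libraries, which allows from 0.109 to 0.161 CPM at the floor of 3 counts. No annotated gene overlaps ST14, and no word of 50 bases in it is shared with another gene. PRSS8 had 2, 0 and 0 counts in control and 2, 2 and 2 in shMUC1 libraries, all under the floor. Transcripts of the inhibitors SPINT1 and SPINT2 were thus measured in cells in which those of their known targets ST14 and PRSS8 were not measurable.

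Levels were ordered by CPM per kilobase of exon. In control cells the order was PI3 (20.8), SERPINB1 (3.96), SLPI (1.10), SPINT2 (0.141), SPINT1 (0.0463) and WFDC2 (0.0418), with SERPINB5 (0.0135), PRSS8 (0.0101) and ST14 (0) last. Neighbours from PI3 to SPINT1 did not overlap between libraries, whereas SPINT1, WFDC2, SERPINB5 and PRSS8 overlapped. In shMUC1 cells the order was PI3 (46.5), SLPI (13.9), SERPINB1 (7.57), SPINT1 (0.543) and SPINT2 (0.413), and then SERPINB5 (0.0658), WFDC2 (0.0549), PRSS8 (0.0285) and ST14 (0). SLPI had passed SERPINB1, with no overlap between libraries of that group. SPINT1 and SPINT2 overlapped, as did SERPINB5 with WFDC2 and WFDC2 with PRSS8.

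To see whether related genes moved as well, lists of the same families were examined without the 9 genes. Of 15 other WAP genes, 10 had 0 counts in every library and only ANOS1 was tested, with a log2 fold change of 0.26 (SE 0.136, edgeR adjusted p = 0.112). Without shMUC1 replicate 1 it was 0.37, with an edgeR adjusted p of 0.0405. WFDC5, WFDC12 and EPPIN, secreted WAP proteins, were among those at 0, while WFDC3 had from 2 to 10 counts and WFDC11 and WFDC13 had 2 counts in control replicate 3 alone. Of 18 other Kunitz and Kazal genes, 7 were tested, of which 3 were higher, 2 were lower and 2 did not pass, with a median log2 fold change of 0.35, or 0.20 when control replicate 2 was left out. The median over all genes tested was 0.000583.

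APP, the amyloid precursor, some forms of which carry a Kunitz domain, fell from 391 ± 8.72 to 190 ± 1.76 CPM (SD, n = 3 each), with an edgeR adjusted p of 6.17e-25. TFPI2, a secreted Kunitz inhibitor of plasmin, rose by 0.54 on the log2 scale (SE 0.0778, edgeR adjusted p = 2.67e-07), and APLP2 rose by 0.16. SPINK6, a Kazal inhibitor of kallikreins, rose from 7 summed counts to 75 and was singled out after its values were seen. Its log2 fold change was 3.36 (SE 0.577, edgeR adjusted p = 6.9e-06). Only its shMUC1 libraries gave it enough counts for a test, so a call could only be of an increase. The kallikreins themselves were hardly detected, with at most 6 counts for any of 15 genes in any library.

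Of 11 other clade B serpins, 3 were tested, of which 2 were higher and 1 was lower, with a median log2 fold change of 0.46. SERPINB7, known from the upper epidermis, had 180, 196 and 148 counts in control and 591, 491 and 373 in shMUC1 libraries. It rose by 1.47 on the log2 scale (SE 0.115, edgeR adjusted p = 2.13e-13). SERPINB6 rose by 0.46 and SERPINB8 fell by 0.44.

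Of 16 serpins of other clades, 5 were tested, of which 3 were lower and 2 did not pass, with a median log2 fold change of -0.22. Leaving out control replicate 1 moved that median to -0.37, and leaving out shMUC1 replicate 1 moved it to -0.41. SERPINE2, a secreted inhibitor of thrombin and urokinase, fell from 483 ± 4.44 to 426 ± 24.1 CPM (SD, n = 3 per group), with an edgeR adjusted p of 3.1e-05. SERPINH1, a collagen chaperone, fell by 0.16 on the log2 scale and SERPINI1 by 0.89.

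Of 20 other membrane serine proteases, 3 were tested. TMPRSS3 and TMPRSS9 did not pass, with log2 fold changes of -0.15 and 0.20. PRSS27 had 8, 24 and 28 counts in control and 16, 0 and 6 in shMUC1 libraries, with an edgeR adjusted p of 0.0415. Its groups overlapped. The call was lost with DESeq2 (adjusted p = 0.366) and when control replicate 2 or 3 or shMUC1 replicate 2 or 3 was left out (edgeR adjusted p from 0.0835 to 0.244). The neutrophil serine protease family (ELANE, CTSG, PRTN3 and AZU1), which includes the elastase that SLPI, PI3 and SERPINB1 inhibit, had at most 4 counts in any library.

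**Figure D2:**
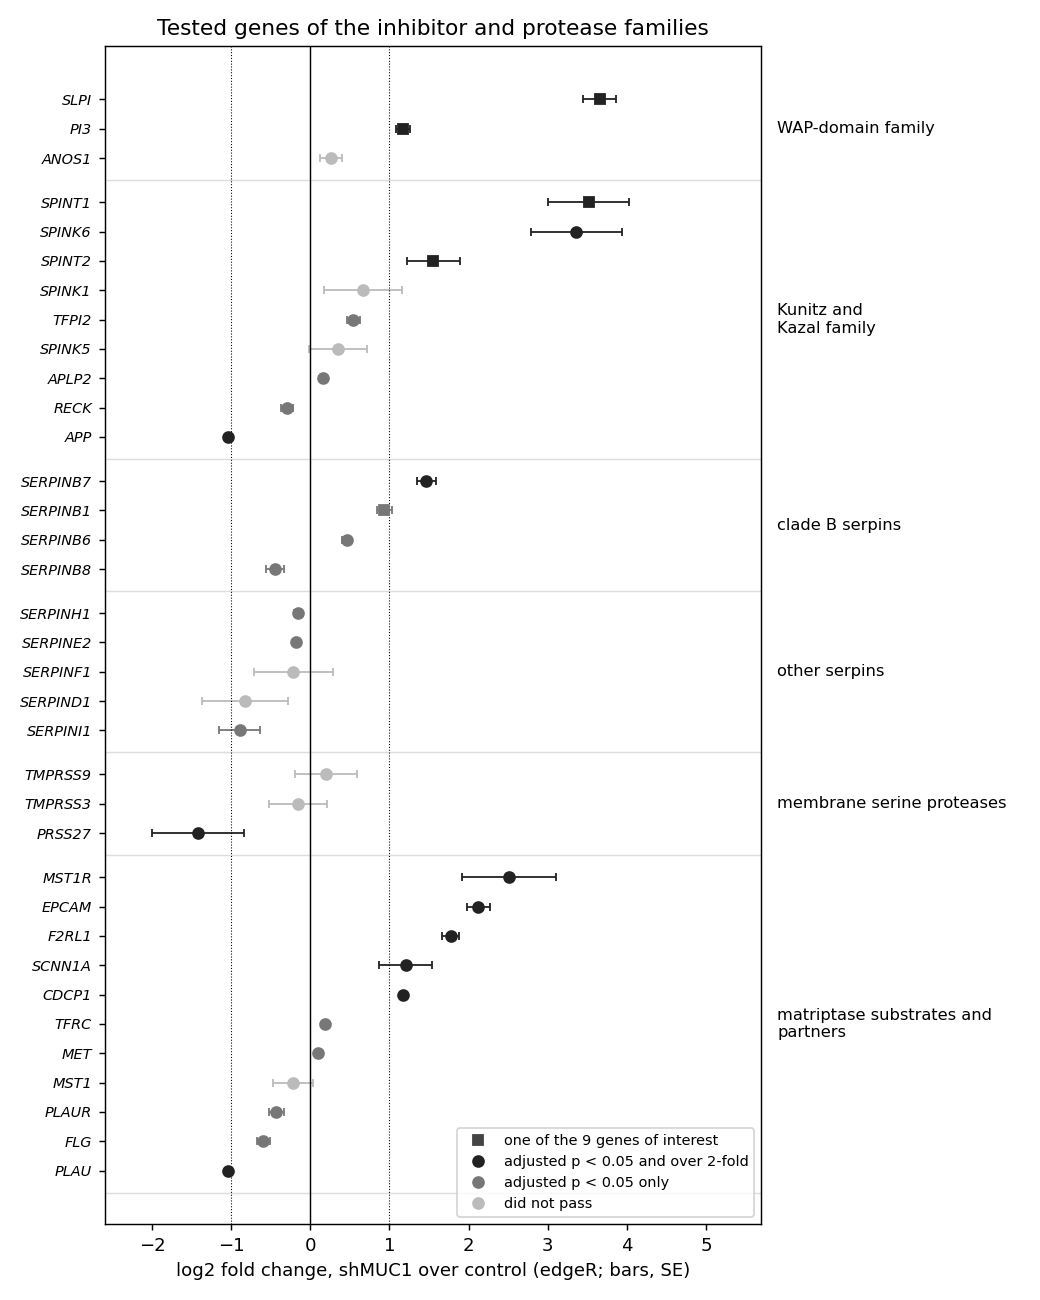
Log2 fold change, shMUC1 over control, from edgeR (horizontal axis, bars are SE) for the tested genes of 6 lists, with squares for 5 of the 9 genes described and circles for other genes. Black points passed both thresholds, dark gray points the adjusted p alone and light gray points neither, and dotted lines mark a fold change of 2. SLPI, SPINT1 and SPINK6 lie farthest to the right, while the 5 serpins outside clade B lie to the left of 0.

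Genes whose products matriptase acts on or works with were mostly measurable. Of 16 such genes, 11 were tested, of which 7 were higher, 3 were lower and 1 did not pass, with a median log2 fold change of 0.19. Over all genes tested, 25.2% were higher and 23.6% lower. Past a fold change of 2 as well, 5 of the 11 were higher and 1 was lower, against 2.21% and 3.74% of all genes tested. The 5 include MST1R, which had enough counts for a test only through its shMUC1 libraries.

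F2RL1, which encodes the protease-activated receptor PAR2, went from 7.56 ± 1.53 to 25.8 ± 1.65 CPM (SD, n = 3 per group), with a log2 fold change of 1.77 (SE 0.11, edgeR adjusted p = 3.03e-16). EPCAM, an epithelial adhesion protein, went from 3.28 ± 0.674 to 14.3 ± 1.02 CPM, with an edgeR adjusted p of 1.76e-15. CDCP1, a transmembrane protein that proteases cleave, went from 98.8 ± 3.58 to 223 ± 6.61 CPM, with an edgeR adjusted p of 3.11e-24. All shMUC1 libraries lay above all control libraries for these 3 genes, which held for 28.1% of all genes tested.

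Lower down, SCNN1A, a subunit of the epithelial sodium channel that prostasin activates, rose by 1.2 on the log2 scale (SE 0.332, edgeR adjusted p = 0.00269). MST1R, the RON receptor, had 0, 6 and 4 counts in control and 23, 19 and 16 in shMUC1 libraries, an edgeR adjusted p of 0.000582. It had a mean under 20 counts and was named after its values were seen. Enough counts for a test came only from its shMUC1 libraries, so a call could only be of an increase. PLAU, the urokinase precursor, fell from 220 ± 1.2 to 107 ± 5.15 CPM (SD, n = 3 per group), with a log2 fold change of -1.03 (SE 0.039, edgeR adjusted p = 1.38e-22). TFRC and MET, the receptor of hepatocyte growth factor, rose by 0.19 and 0.10 on the log2 scale (for MET the edgeR adjusted p was 0.00719, and 0.0505 without control replicate 1), and HGF itself had 0 counts in every library.

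**Figure D3:**
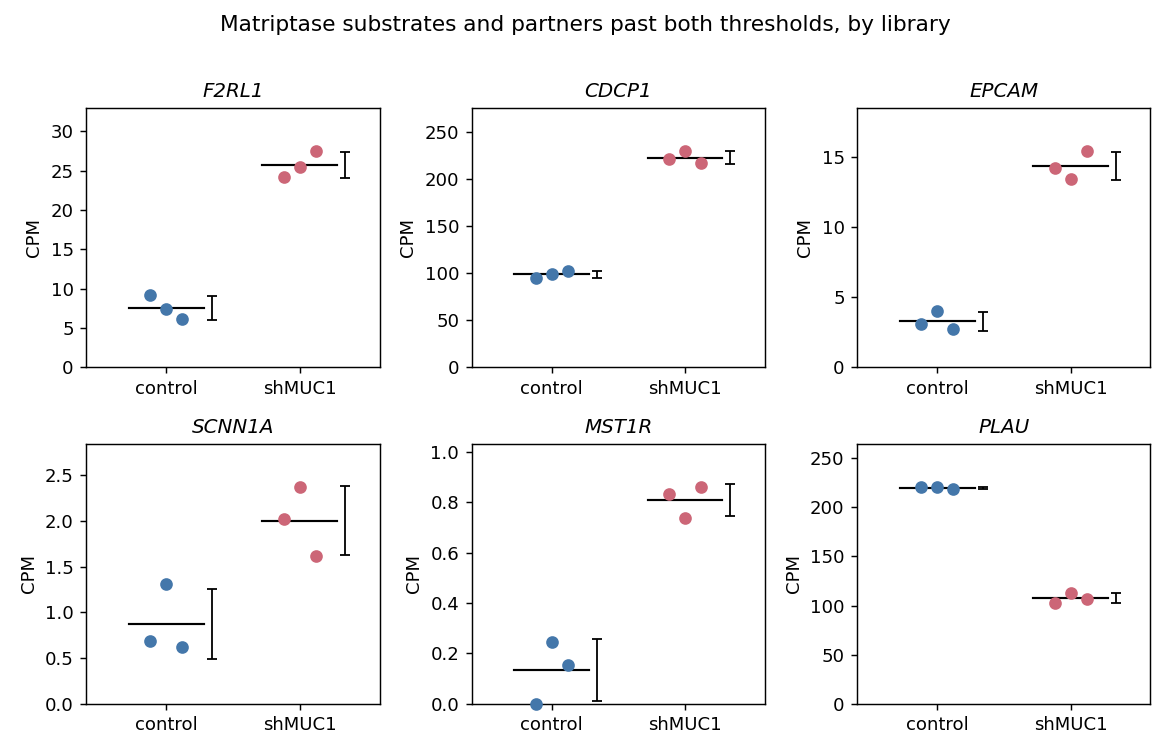
Level in counts per 1000000 counts (CPM, vertical axis, from 0) of the 6 matriptase substrates and partners past both thresholds in the 3 control and 3 shMUC1 libraries. Points are libraries, horizontal lines are means and bars are SD. PLAU was lower in every shMUC1 library, and the other 5 genes were higher in every shMUC1 library. Over all genes tested, 28.1% were higher and 26.8% lower in every shMUC1 library than in every control library.

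The neighbours of the 9 genes were compared next. Within 250 kb of any of them, 61 other genes were tested, of which 16 were higher and 8 lower by edgeR at an adjusted p under 0.05. Over all genes tested, 25.2% were higher and 23.6% lower. The share of neighbours higher was thus near the background, and the share lower was under it. Their median log2 fold change was 0.04.

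Around SLPI, 5 other genes were tested, with 1 higher and 2 lower, none of them past a fold change of 2. SDC4, a heparan sulfate proteoglycan of the cell surface 70.7 kb from SLPI, rose by 0.51 on the log2 scale (SE 0.0336, edgeR adjusted p = 1.39e-15). STK4 fell by 0.60 and SYS1 by 0.40. PI3 and SLPI lie 75.7 kb apart, and both coding genes between them, SEMG1 and SEMG2, had at most 2 counts in any library. The differences of SLPI and PI3 thus stood beside smaller differences in both directions and silent genes.

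**Figure D4:**
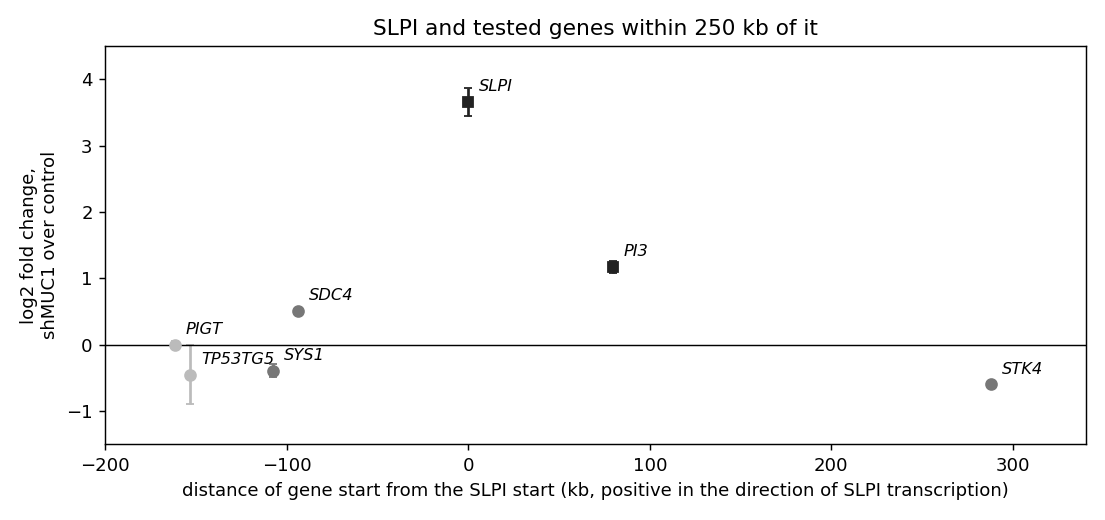
Log2 fold change, shMUC1 over control, with SE (vertical axis) of SLPI, PI3 and the 5 other tested genes within 250 kb of SLPI, against the distance of each gene's start from that of SLPI in kb. SLPI (3.66) and PI3 (1.17) stand above SDC4 (0.51), and STK4 (-0.60) and SYS1 (-0.40) lie under 0.

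Elsewhere, of the 61 neighbours tested, 5 rose and 1 fell at an adjusted p under 0.05 and past a fold change of 2. Over all genes tested, 2.21% rose and 3.74% fell by that rule. RHOV and CHAC1, both near SPINT1, had log2 fold changes of 1.12 and 1.19, with edgeR adjusted p of 0.00655 and 9.83e-08. SERPINB7 lies 247.8 kb from SERPINB5. ADAMTS15, near ST14, had 1.02 (edgeR adjusted p = 3.32e-06), GGN, near SPINT2, had 1.22 (edgeR adjusted p = 0.0491) and ITGAX, near PRSS8, had -1.73 (edgeR adjusted p = 0.00868). ITGAX had enough counts for a test only through its control libraries, so a call could only be of a decrease. GGN had too few counts for a test in its control libraries alone. GGN was called in 3 of 12 alternatives that tested it. RHOV was lost without shMUC1 replicate 1 (edgeR adjusted p = 0.134), and ITGAX without control replicate 1 or shMUC1 replicate 1 (0.0777 and 0.0891).

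The 5 genes whose log2 CPM followed SLPI most closely over the 6 libraries were SPCS3, NEK7, STK40, ERO1A and SDC4, with Pearson correlations from 0.9991 to 0.9995 among the 11127 tested genes that averaged 100 counts or more. The libraries form only 2 groups, so such a correlation mostly records that a gene was higher in shMUC1 libraries with little spread. Log2 fold changes of these 5 genes ran from 0.31 to 0.51, far under that of SLPI. SDC4 is also the neighbour of SLPI named above.

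Marker lists of cell types were counted last, and over all genes tested 25.2% were higher and 23.6% lower. Of 12 epithelial markers, 6 were tested, of which 5 were higher and 1 was lower, and their summed level was from 547 to 581 CPM in control and from 1103 to 1144 CPM in shMUC1 libraries. KRT8 and KRT18, keratins of simple epithelia, made up nearly all of that sum, with mean levels of 426 and 131 CPM in control and 825 and 266 CPM in shMUC1 cells. ELF3 rose from 3.35 to 14.3 CPM, and CLDN4, a tight junction protein, was the marker that fell, from 2.5 to 1.5 CPM. TJP3, among the 5 that were higher, had enough counts for a test only through its shMUC1 libraries. GRHL2 and OVOL1 were at 0 in every library, and KRT19 and RAB25 were at 0 in every shMUC1 library. Of 10 squamous markers, 4 were tested and 3 were higher, TP63 not passing, with KRT6A at 2, 4 and 2 counts in control and 195, 167 and 96 in shMUC1 libraries. The 3 that were higher, KRT6A, KRT16 and KRT17, had enough counts for a test only through their shMUC1 libraries. The summed level of the squamous markers was from 1.19 to 2.87 CPM in control and from 7.69 to 10.8 CPM in shMUC1 libraries. KRT6A made up most of the shMUC1 sum, with a mean of 6.23 CPM.

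Of 10 mesenchymal markers, all tested, 2 were higher (FN1 and SNAI2), 7 were lower and TWIST1 did not pass. The 7 that fell were ZEB2, ZEB1, SPARC, VIM, AXL, CDH2 and COL1A1. SPARC had enough counts for a test only through its control libraries, so a call could only be of a decrease. ZEB2 fell from 161 to 45.2 CPM, SPARC from 1.55 to 0.393 CPM and VIM from 718 to 417 CPM. FN1 rose from 962 to 1285 CPM. The summed level of the 10 was from 2415 to 2452 CPM in control and from 2157 to 2211 CPM in shMUC1 libraries. Of 10 leukocyte markers, 3 were tested and 2 were higher (CD14 and PTPRC), ITGAM not passing. Summed levels ran from 3.91 to 4.11 CPM in control and from 6.50 to 9.24 CPM in shMUC1 libraries. CD14 made up most of these sums, with means of 2.99 CPM in control and 6.28 CPM in shMUC1 cells. PTPRC had enough counts for a test only through its shMUC1 libraries. CD3E, MS4A1, MPO and FCGR3B were at 0 in every library. The part of these markers in the differences of the 9 genes was not tested.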

How the data were processed

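RNA-seq was measured in 6 libraries of MDA-MB-436 cells, 3 control and 3 shMUC1, grouped by the treatment labels and prepared with the TruSeq Stranded mRNA kit. The deposited file holds unnormalized counts for each gene, a column to a library, unpooled. The submitters' processing notes name CASAVA 1.8.2, STAR 2.7.9a, featureCounts, DESeq2 1.24.0 and build GRCh38.p7, and the annotation, strand and read-pair settings are not given in the sources used here. Triplicate culture is all the labels say of the replicates, so p-values measure the spread between these libraries.

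Counts were tested two-sided in R 4.3.3 by edgeR 4.0.16, quasi-likelihood test (TMM, filterByExpr, group as the only term), with Benjamini-Hochberg adjustment over the 15355 genes tested. SE was derived from the F statistic. The script was tested on simulated data. Alternatives were DESeq2 1.42.0, limma-voom (limma 3.58.1), DESeq2 size factors, library totals, no filter on low counts, a minimum mean of 50 counts, a replicate block, leaving out every library once, counts halved, libraries drawn down to the smallest total and, for ratios, the longest transcript.

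Exon length, positions and overlaps came from GENCODE release 29 (GRCh38), and promoters from RefSeq (GRCh38.p14). The 9 genes and the lists were chosen with earlier results of these data known. Genes named were the 9 genes, MUC1, list genes past both thresholds with a mean of at least 20 counts, the 3 most abundant of each list, neighbours past both thresholds and the 5 genes most like SLPI. The ratio of SLPI to PI3, ratios with counts halved and the promoter and shared-word counts were added after seeing the data. Ratios to ST14 could not be computed, since it had 0 counts. Of the serpins of other clades, 1 gene is not reported here and was left out of that list's counts.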

Additional observations from a re-analysis of the deposited data

How the results depend on the processing

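SLPI, PI3, SERPINB1, SPINT1 and SPINT2 were chosen with this contrast known, so their values under the alternatives are given without p-values, mostly as ranges. SLPI ranged from 3.47 to 3.81 on the log2 scale, PI3 from 1.12 to 1.21, SERPINB1 from 0.87 to 0.995, SPINT2 from 1.34 to 1.83 and SPINT1 from 2.94 to 4.40. MUC1, the targeted gene, ranged from -1.02 to -0.75. A minimum mean of 50 counts left 3 of the 9 genes past the adjusted p, since SPINT1 and SPINT2 were no longer tested. The share of all genes past the adjusted p with that filter is not given here, so nothing is read from that count. By the separate rule of both thresholds, the filter left 177 higher and 275 lower genes in place of 339 and 575. The fall of PRSS27, the lone membrane protease called, was lost with DESeq2 and with the replicate block, and with counts halved it was not tested (0 genes each), while fits that each left out 1 library gave from 0 to 1. Without shMUC1 replicate 1, ANOS1 was called, so the other WAP genes higher numbered from 0 to 1. TMPRSS3, never called, was at 0.044 with libraries drawn down and ran from -0.36 to 0.18 across libraries left out. GGN was lost in 9 of 12 alternatives. Across libraries left out, the control ratio of SPINT1 to SPINT2 (log2) ran from -2.69 to -0.72, against -1.59 with all libraries. The median of the WAP list (1 gene tested) was -1.10 with no filter on low counts, that of Kunitz and Kazal genes -0.09 with a minimum mean of 50 counts, and that of membrane proteases (3 genes, -0.15) lay above 0 with no filter on low counts (0.0875), counts halved (0.0336) or libraries drawn down (0.044), and ran from -0.20 to 0.0937 across libraries left out. Of 960 alternative values, 908 kept direction and side of the threshold or lay near the reported value. Same-numbered libraries did not deviate together (correlations from -0.0416 to -0.008). With the replicate block, SLPI was at 3.66, and the MUC1 level differed by -0.86 on the log2 scale. Depth limits SERPINB5, WFDC2, PRSS8 and ST14 most, with 8 counts or fewer in every library.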
